A study of Mus musculus with 2 samples.

Results

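Short H3K27me3 peaks that lay wholly inside gene bodies were examined in primary mouse chondrocytes, the cells that form cartilage. The members were chosen by the width and position of the called peaks. A peak was taken when it was under 10 kb wide, lay inside at least 1 gene record of the authors' annotation, and covered no gene start. Of the 19359 peaks in the list, 6493 (33.5%) met this rule and are called intragenic peaks here. The cells came from the rib cartilage of wild-type newborn mice of the CD1 stock, released with collagenase 2 and cultured overnight in DMEM with 10% serum. There was 1 library of chromatin precipitated with an H3K27me3 antibody (ChIP) and 1 library of input DNA, both from untreated cells, so no value has a replicate check and no test was run. The libraries held 17237574 and 17004082 filtered tags. The groups follow the sample titles, and the antibody tags contradict them, since the library titled input is tagged H3K27me3 and the library titled ChIP is tagged input. Which of them is right was not tested. No gene expression was measured in these files, so the identity of the cells could not be checked against expressed markers.

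Trimethylation of lysine 27 on histone H3 is placed by Polycomb repressive complex 2 (PRC2), whose catalytic subunit is Ezh1 or Ezh2 with Eed and Suz12 as core partners. The mark is known for broad domains over the CpG-rich starts of silent developmental genes, where it is bound by further Polycomb proteins. It also spreads at lower levels into the bodies of silent genes and the space between genes. In chondrocytes PRC2 is needed for normal growth of the cartilage.

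Many of the results below concern the distance of these peaks to gene starts, so the start windows of example genes are shown first. The windows are those of RefSeq (GRCm38.p6), from 250 bases before to 50 bases after the start, 5′ to 3′ along the gene, with every CpG in capitals. The first 4 are the starts of the genes with a peak on either side, inside and upstream, whose inner peak had the highest fold enrichment among those with a listed window. They lie at chr9:103761788-103762087 on the minus strand (Tmem108, a transmembrane protein of neurons), chr10:21160935-21161234 on the minus strand (Myb, a transcription factor of blood progenitors), chr12:81630999-81631298 on the plus strand (Ttc9) and chr4:49059212-49059511 on the plus strand (Plppr1, named Lppr1 in the authors' annotation). They hold 39, 40, 25 and 29 CpGs, and all pass the limits for CpG-rich used below.
Tmem108: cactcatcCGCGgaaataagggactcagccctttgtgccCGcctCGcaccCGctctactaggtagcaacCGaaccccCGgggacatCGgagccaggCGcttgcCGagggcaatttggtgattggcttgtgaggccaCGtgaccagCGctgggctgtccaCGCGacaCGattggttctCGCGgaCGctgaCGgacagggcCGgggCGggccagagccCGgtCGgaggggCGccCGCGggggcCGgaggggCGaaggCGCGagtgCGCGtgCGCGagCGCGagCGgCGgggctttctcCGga
Myb: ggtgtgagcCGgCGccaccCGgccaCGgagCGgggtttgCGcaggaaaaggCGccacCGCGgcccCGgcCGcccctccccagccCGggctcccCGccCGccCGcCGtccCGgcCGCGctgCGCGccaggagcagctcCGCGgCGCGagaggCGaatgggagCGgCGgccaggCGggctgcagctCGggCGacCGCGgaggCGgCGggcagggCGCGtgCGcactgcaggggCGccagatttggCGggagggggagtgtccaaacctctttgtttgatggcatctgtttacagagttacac
Ttc9: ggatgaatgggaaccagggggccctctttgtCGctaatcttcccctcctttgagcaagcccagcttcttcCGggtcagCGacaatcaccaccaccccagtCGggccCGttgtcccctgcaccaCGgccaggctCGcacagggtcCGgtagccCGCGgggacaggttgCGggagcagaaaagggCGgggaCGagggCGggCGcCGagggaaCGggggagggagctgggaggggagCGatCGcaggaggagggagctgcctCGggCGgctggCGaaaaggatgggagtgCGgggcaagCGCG
Plppr1: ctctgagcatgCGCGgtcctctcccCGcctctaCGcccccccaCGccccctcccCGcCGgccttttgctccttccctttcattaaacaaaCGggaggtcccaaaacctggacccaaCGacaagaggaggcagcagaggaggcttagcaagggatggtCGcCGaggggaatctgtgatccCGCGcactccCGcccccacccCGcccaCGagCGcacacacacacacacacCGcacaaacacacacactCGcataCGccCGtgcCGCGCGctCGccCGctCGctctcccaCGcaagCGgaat
The next pair are starts with no peak within 5 kb on either side, in the genes of this kind with the most intragenic peaks among those with a record of 2 Mb or less and a RefSeq window within 1 kb of its start. They are Myo3b, an unconventional myosin (chr2:70038876-70039175, plus strand), and Kcnip1, a potassium channel partner (chr11:33993144-33993443, minus strand). Each holds 7 CpGs.
Myo3b: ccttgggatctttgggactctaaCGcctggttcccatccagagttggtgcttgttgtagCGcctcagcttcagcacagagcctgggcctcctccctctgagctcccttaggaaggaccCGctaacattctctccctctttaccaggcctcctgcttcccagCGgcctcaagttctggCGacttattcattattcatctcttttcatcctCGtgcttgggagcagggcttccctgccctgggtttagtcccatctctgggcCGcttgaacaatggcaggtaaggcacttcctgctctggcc
Kcnip1: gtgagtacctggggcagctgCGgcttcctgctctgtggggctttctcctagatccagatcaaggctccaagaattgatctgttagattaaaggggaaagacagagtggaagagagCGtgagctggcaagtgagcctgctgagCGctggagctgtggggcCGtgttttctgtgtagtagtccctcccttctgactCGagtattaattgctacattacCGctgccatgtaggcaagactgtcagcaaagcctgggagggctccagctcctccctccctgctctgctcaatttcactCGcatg
The last pair are inner starts, which the authors' annotation did not use and which lie under an intragenic peak of the same gene. They were picked as the CpG-rich starts of this kind under the peaks of highest fold enrichment, and most starts of this kind were not CpG-rich. They are Filip1l (chr16:57548992-57549291, plus strand, 32 CpGs) and Pak6, a kinase (chr2:118676996-118677295, plus strand, 35 CpGs).
Filip1l: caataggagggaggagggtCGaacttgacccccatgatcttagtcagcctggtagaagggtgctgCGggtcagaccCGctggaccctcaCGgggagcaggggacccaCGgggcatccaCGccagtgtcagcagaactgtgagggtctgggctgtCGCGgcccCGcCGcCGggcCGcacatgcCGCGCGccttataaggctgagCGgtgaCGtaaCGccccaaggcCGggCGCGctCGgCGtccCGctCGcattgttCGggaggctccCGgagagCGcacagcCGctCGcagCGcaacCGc
Pak6: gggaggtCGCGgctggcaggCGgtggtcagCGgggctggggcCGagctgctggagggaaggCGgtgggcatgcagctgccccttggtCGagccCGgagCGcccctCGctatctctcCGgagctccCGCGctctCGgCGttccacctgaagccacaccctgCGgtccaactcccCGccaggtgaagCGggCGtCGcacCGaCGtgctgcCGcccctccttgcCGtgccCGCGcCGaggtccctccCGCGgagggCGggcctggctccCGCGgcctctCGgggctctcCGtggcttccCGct

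The intragenic peaks were narrow and weakly enriched, like the list as a whole. Their median width was 1187 bp (95% interval 1163 to 1213 bp, quartiles 683 and 2164 bp), and 161 had the smallest width in the list, 294 bp, which is the fragment length of the peak caller. The widest was 9900 bp. Together they covered 11.2 Mb, or 23.9% of the length of all peaks. Fold enrichment, the ratio of ChIP to input fragments after adding 1 to both, had a median of 3.15 (interval 3.14 to 3.16) and ran from 1.54 to 4.77. The median pileup, which averages the depth of ChIP fragments across a peak, was 10.99. The mean q-value was 0.05 or less for 3849 (59.3%) of them, against 60.8% of all peaks. A fold enrichment of at least 3.5 was found for 532 (8.19%), against 9.56% of all peaks. A mark on few cells and a weak mark on many cells cannot be told apart in such a population.

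Short peaks that covered a gene start were wider than the members. A wide peak reaches a start more easily, and members must not cover one, so the rule itself sets part of this difference. The 921 short peaks that covered a gene start had a median width of 3795 bp (3462 to 4226 bp), a median fold enrichment of 3.28 (3.26 to 3.30), and for 81.4% the mean q-value was 0.05 or less. The 7984 short peaks with no gene within 5 kb had a median width of 1141 bp (1119 to 1165 bp), a median fold enrichment of 3.13 (3.12 to 3.13), and 55.3% had such a q-value. The values of the intragenic peaks lay between these groups and nearer to the second. The gene bodies of the RefSeq table took up 47.2% of the chromosome spans, and 48.6% (47.9 to 49.3%) of all short peaks were centred in them.

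Near the limit of 10 kb that defines the members, the peaks on both sides had similar values. The 5 widest members were in Mdh1b (9900 bp, fold enrichment 3.28), Gata6 (9841 bp, 3.33), Srrm3 (9815 bp, 3.39), Slc12a5 (9783 bp, 3.27) and Rims2 (9746 bp, 3.43). The 5 narrowest gene-body peaks above the limit were in Cpeb1 (10007 bp, 3.27), Slit1 (10056 bp, 3.45), Skor2 (10068 bp, 3.43), a record without a symbol (10071 bp, 3.46) and Chn2 (10085 bp, 3.45).

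Within the host genes the intragenic peaks were concentrated a few kilobases downstream of the start. With 1 host record per peak, the shortest, the first 10% of the gene length held 1210 peaks (18.6%, 17.7 to 19.6%) and the last 10% of it 405 (6.24%, 5.67 to 6.85%). Equal spacing would put 10% of the peaks in each of 10 equal parts. The median distance from the start to the peak centre was 20.7 kb (19.3 to 21.9 kb), with quartiles of 5.33 and 76.4 kb. This median was 10.5 kb over peaks with a mean q-value of up to 0.01 and 11 kb with a minimum fold enrichment of 3.5.

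**Figure D1:**
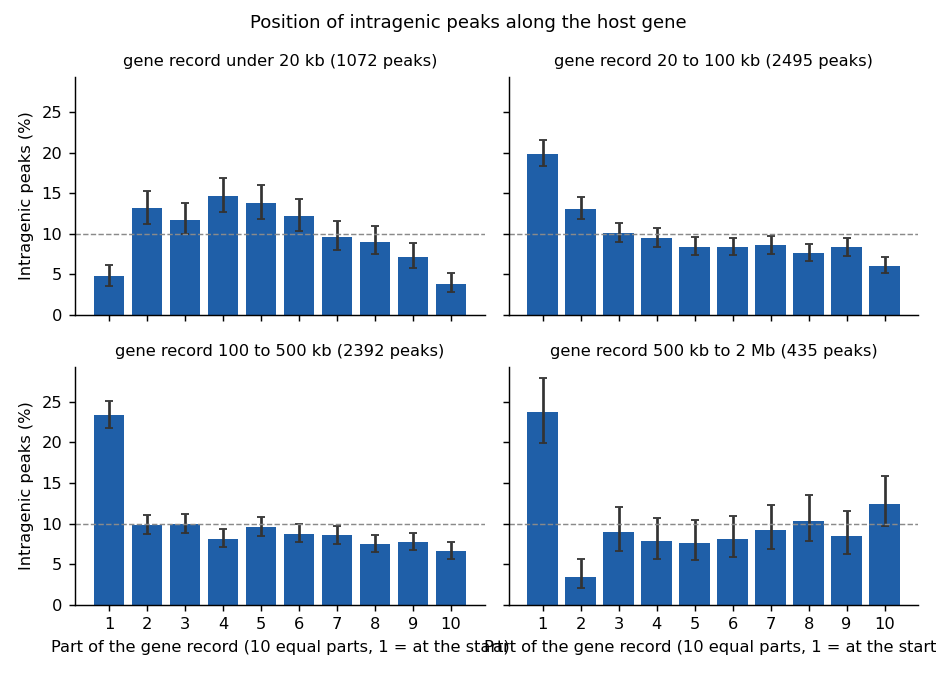
Share of intragenic peaks (%) centred in each of 10 equal parts of the host gene record, from the start (1) to the end (10), in 4 classes of record length. Error bars are 95% Wilson intervals and the dashed line marks 10%. In records of 100 to 500 kb the first of these parts held 23.4% and the last 6.61%, and in records under 20 kb both ends were low.

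The position depended on the length of the record. In records under 20 kb the first of these parts held 4.76% and the last 3.82% of 1072 peaks, and the most, 14.6%, lay in the fourth of the 10 parts. One part in 10 of so short a record leaves little room for a peak that must not touch the end. In records of 100 to 500 kb the first of these parts held 23.4% (21.7 to 25.1%) of 2392 peaks and the last 6.61% (5.68 to 7.67%). In records of 500 kb to 2 Mb the first of these parts held 23.7% of 435 peaks, the second only 3.45% and the last 12.4%. These 435 peaks lay in 98 host records, and many in the last part lay in Tenm2 and Asic2. The intervals treat peaks of the same gene as independent, which they are not.

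Counted in kilobases, the peaks lay closer to starts than to ends. In records over 20 kb, 930 of 5421 peaks (17.2%, 16.2 to 18.2%) were centred within 5 kb of the start and 259 (4.78%, 4.24 to 5.38%) within 5 kb of the end. Within 2 kb the shares were 5.04% and 1.13%, and within 10 kb they were 26% and 9.98%. Every member lay wholly inside its host record, so no peak over the start or the end of the host itself was counted. The rule was not the same for other genes, since 138 short gene-body peaks were left out for covering the start of another gene and 59 members that overlap the end of another gene were kept. Among the 1902 host genes over 20 kb, coverage from the start rose to 26.5% of genes (24.6 to 28.5%) at 2.375 kb, then fell to 8.52% at 9.875 kb. At that distance from the end it was 5.36%. At 19.875 kb the shares were 6.10% from the start and 5.84% from the end, with intervals that overlapped.

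**Figure D2:**
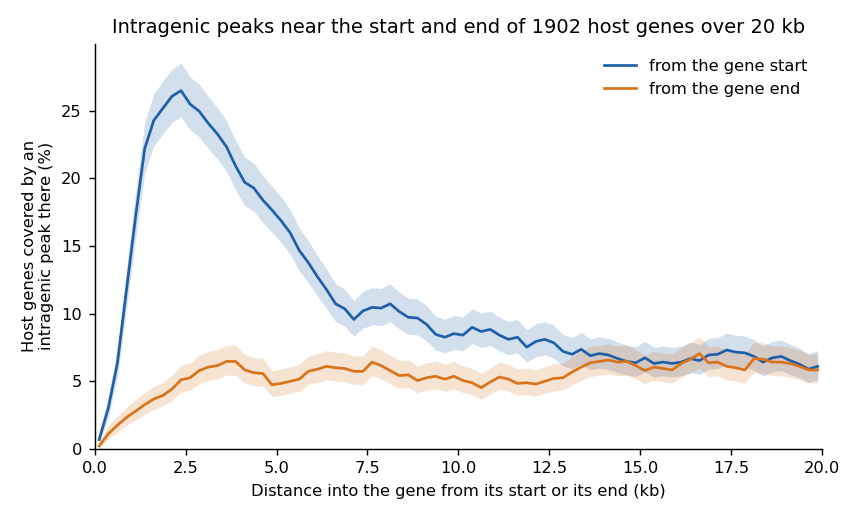
Share of host genes over 20 kb (%) that an intragenic peak covered at each distance (kb) into the gene, from the start (blue) and from the end (orange), with 95% Wilson bands over 1902 genes. The share from the start was highest at 2.375 kb (26.5%) and both curves were near 6% at 19.875 kb.

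Width differed with the distance from the start. The 1065 peaks centred 2 to 5 kb from the start had a median width of 1623 bp (1506 to 1787 bp) and a median fold enrichment of 3.21 (3.19 to 3.23), and for 69.6% (66.7 to 72.3%) the mean q-value was 0.05 or less. The 765 peaks at 100 to 250 kb had 1097 bp (1024 to 1177 bp), 3.12 (3.10 to 3.14) and 51.8% (48.2 to 55.3%). The 560 peaks beyond 250 kb had 1136 bp (1043 to 1220 bp), 3.13 (3.11 to 3.15) and 55.7% (51.6 to 59.8%). Between 5 and 50 kb the median width was 1184 to 1205 bp in each of 3 distance classes. The 493 peaks centred within 2 kb had a median width of 945 bp, and wider peaks there would reach the start and leave the rule. Across the 6493 peaks the Spearman correlation of distance with fold enrichment was -0.11, that of distance with width -0.05 and that of width with fold enrichment 0.24. These describe peaks of 1 library, which are not replicates.

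Some hosts had peaks on both sides of an uncovered start. The start of 2268 of the 2742 host records (82.7%, 81.3 to 84.1%) lay under no peak, and that of 474 (17.3%, 15.9 to 18.7%) lay under another peak, 132 of them under a peak of 10 kb or more. The latter share was 8.06% over peaks with a mean q-value of up to 0.01 and 6.32% with a minimum fold enrichment of 3.5. Over all genes, 31348 of 32851 RefSeq start windows lay under no peak, counted by window and not by record. Of the 1572 hosts over 20 kb with an uncovered start, 594 (37.8%, 35.4 to 40.2%) had a peak within 5 kb upstream, and 464 had one on both sides. The same share over genes that are not hosts was not computed, and 64.9% of all members had another peak within 5 kb. Of these 1572, 849 had an intragenic peak whose near edge lay within 5 kb of the start, and 464 of the 849 (54.7%, 51.3 to 58%) had the upstream peak as well. Of the 723 without such an inner peak, 130 (18%, 15.4 to 20.9%) had a peak upstream. At the ends, 103 of 250 genes (41.2%, 35.3 to 47.4%) with an inner peak within 5 kb had a peak just downstream, against 122 of 1536 (7.94%, 6.69 to 9.40%) without.

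The genes whose inner peak had the highest fold enrichment show the arrangement. In Tmem108 an inner peak of 1664 bp (fold enrichment 4.20, q 0.000445) began 504 bp inside the gene, and a peak of 1.94 kb (3.11, q 0.0555) lay 3204 bp upstream. In Myb the inner peak of 661 bp (4.01, q 0.00103) began 2301 bp inside, and a peak of 1.24 kb (3.12, q 0.0461) lay 675 bp upstream. In Ttc9 the inner peak of 1359 bp (3.97) began 1725 bp inside, and a peak of 9.39 kb (3.51) ended 512 bp upstream. In each the start window shown above lay in the gap between both peaks. Lppr1, Nsg2 and Rsrc1 had the same layout, with inner peaks at 1288, 1320 and 1001 bp and outer peaks at 3547, 367 and 1128 bp from the start. For Rsrc1 the outer peak was 15.2 kb wide. The flanking peaks of Tmem108 and Lppr1 had mean q-values above 0.05 (0.0555 and 0.0860).

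The CpG content of starts was described with the RefSeq windows, where a window of 300 bases was called CpG-rich at a GC content of at least 50% and an observed over expected CpG ratio of at least 0.6. A window within 1 kb of the record start was found for 303 of the 464 hosts with peaks on both sides (65.3%), and for 61.8%, 61.5% and 55.1% of the hosts with a peak inside only, upstream only and on neither side. Fewer than 80% had a value in each class, so a check of CpG content over these classes is void, and the shares describe the matched starts only. Of those matched, 216 of 303 starts (71.3%) between peaks were CpG-rich, as were 131 of 238 (55.0%) with a peak inside only, 40 of 80 (50%) with one upstream only and 84 of 327 (25.7%) with neither. The first listed start of all protein-coding genes with a window was CpG-rich in 45.7%.

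Few intragenic peaks covered a start that the annotation had not listed. Of the 6352 members off chromosome 18, for which no windows were used, 123 (1.94%, 1.63 to 2.31%) covered a RefSeq start, 77 of them an inner start of their own host gene. Of the 80 own starts under these peaks 21 (26.3%, 17.9 to 36.8%) were CpG-rich, and of the 52 starts of other genes 5 (9.62%, 4.18 to 20.6%). All listed starts were CpG-rich in 33.5%, and those under short peaks that covered a start in 33.8%. The inner start of Filip1l lay 196 kb from the record start under a peak of 1034 bp (fold enrichment 3.99). That of Pak6 lay 13.9 kb inside, under a peak of 8945 bp (3.69).

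The peaks were spread over many genes. The 6493 peaks formed 6843 pairs with 2742 gene records, because 285 peaks lay in 2 overlapping records and 17 in 3 or more. For 230 peaks the overlapping hosts were on both strands, so the mark could not be given to one of them. Of the records, 1492 (54.4%, 52.5 to 56.3%) held 1 peak and 698 (25.5%, 23.9 to 27.1%) held 3 or more. The latter share was 18.7% over peaks with a mean q-value of up to 0.05, 3.73% with 0.01 and 4.36% with a minimum fold enrichment of 3.5. The 698 records held 62.1% of all pairs, and the 18 records with at least 20 peaks each held 8.46%. Most hosts matched in the gene table were protein-coding (2242), with 141 lncRNAs and 343 records unmatched.

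**Figure D3:**
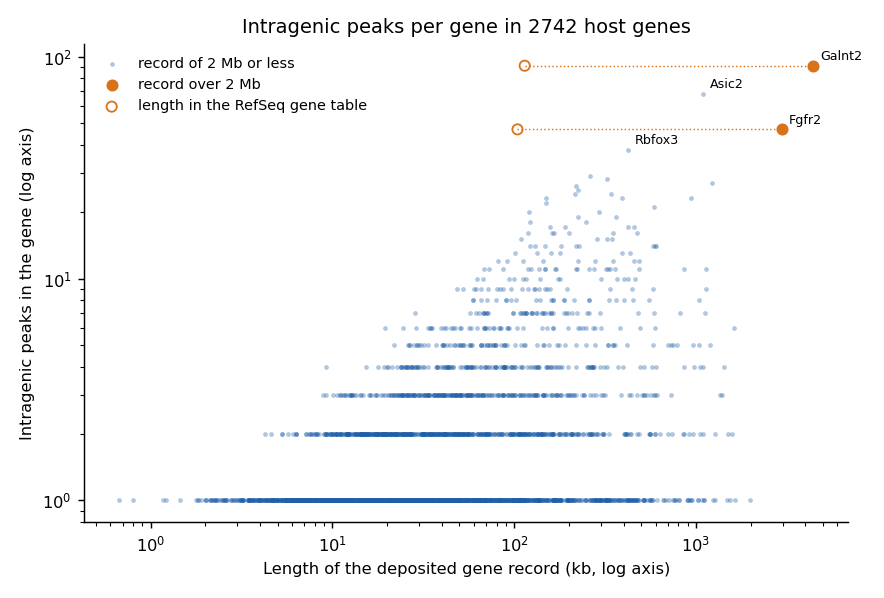
Number of intragenic peaks in each of 2742 host records against the length of the record (kb), both on log axes. Filled orange points are the records over 2 Mb, Galnt2 with 91 peaks and Fgfr2 with 47, and open circles joined to them mark the length of the same gene in the RefSeq table.

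Longer genes more often held a peak. Of all 21887 protein-coding genes in the RefSeq table, 2275 (10.4%) hosted one. Over peaks with a mean q-value of up to 0.01 it was 1.94%, and with a minimum fold enrichment of 3.5 it was 1.78%. With all members counted, the share was 1.79% of genes under 5 kb, 8.64% at 10 to 20 kb, 15.8% at 40 to 80 kb and 42.2% (37.9 to 46.5%) above 320 kb. Per megabase of gene there were 11.2 peaks under 5 kb, 6.55 at 40 to 80 kb, 6.81 at 80 to 160 kb and 3.43 above 320 kb. These values set the pairs of the annotation against RefSeq lengths. Of the 127 pairs under 5 kb, 16 came from the overlong record of Kcna5, 9 from that of Ccl1 and 2 from that of Olfr56. The 91 peaks of Galnt2 and 47 of Fgfr2 count at 80 to 160 kb.

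Apart from the 2 records over 2 Mb, Asic2 had the most peaks. Asic2, a proton-gated sodium channel, held 68 peaks over 1088 kb, with fold enrichments from 2.87 to 3.75, and 10.1% of the record was covered. Rbfox3, the splicing factor known as NeuN, held 38 peaks over 422 kb (2.91 to 3.79), covering 21.0%. Chn2, a Rac-regulating protein, held 29, and Megf11, a receptor for spacing of retinal neurons, 28. Tenm2, an adhesion molecule of synapses, held 27 peaks over 1229 kb, covering 3.0% of the record. Phactr3 held 26, the kainate receptor gene Grik3 25 with 23.1% of the record covered, and Raet1e, a ligand of an immune receptor, 24. Hydin, a gene of motile cilia, also held 24, and the tie was settled by fold enrichment. The record of Raet1e was 216 kb long, against 31.2 kb in the RefSeq table. Of these genes Asic2, Rbfox3, Chn2, Megf11, Phactr3 and Raet1e also had a peak over the start, and Tenm2, Grik3 and Hydin had none.

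**Figure D4:**
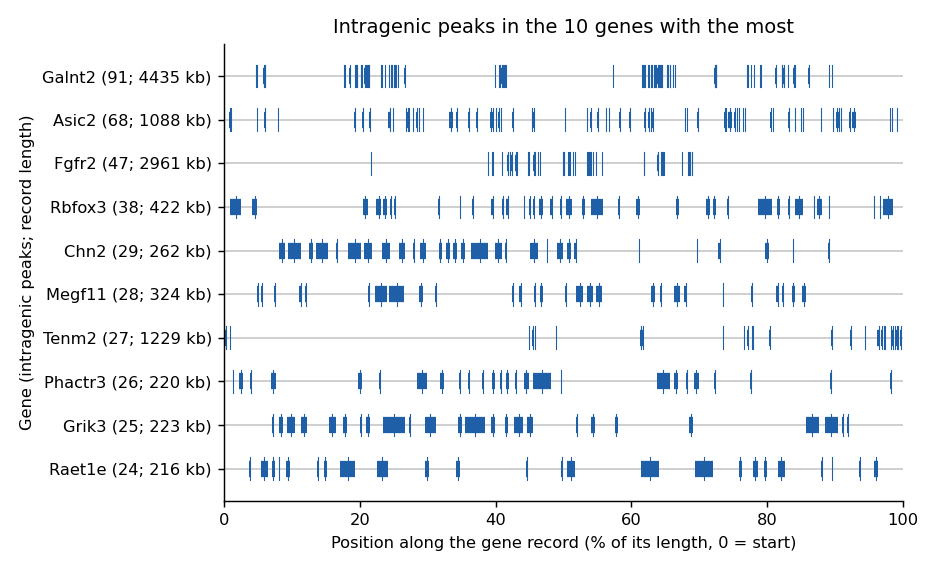
Intragenic peaks along the records of the 10 genes with the most (Hydin, with 24 like Raet1e, is not drawn), as percent of the record length from the start. Blocks show the width of each peak to scale and thin lines its centre. The peaks of Fgfr2 occupied the middle of its record (21.6 to 69.0%), while those of Asic2 ran along nearly all of it.

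By density, among records with at least 5 peaks, shorter genes led. Oas2, an antiviral enzyme that senses double-stranded RNA, held 6 peaks in 19.5 kb, or 30.7 per 100 kb. Others among the densest were 2410003L11Rik (24.6), Nr5a1 (22.8), Ropn1 (20.9), 4930522H14Rik (19.3), Mlkl (19), Wnt9a (18.8), Sez6 (18.7) and Fbxo41 (18). Nr5a1 encodes the steroidogenic factor of gonads and adrenal glands, Ropn1 a sperm protein and Sez6 a protein of neurons. The peaks covered 40.6% of the Sez6 record and 38.0% of the Oas2 record.

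Ion channel and receptor genes were often hosts. The lists below are of protein-coding genes, and each share is set beside that of all protein-coding genes of the same length classes, since long genes host more. Potassium channel genes were hosts in 45 of 94 cases (47.9%, 38.1 to 57.9%), against 16.1% for the same lengths, with a median of 2 peaks per host against 1 over all hosts. Kcnip1 held 19 peaks and Kcnd3, a channel of transient currents, 11. Kcna5 held 16 peaks by the annotation, but its record spanned 166 kb against 3.005 kb in the RefSeq table. Sodium and calcium channel genes were hosts in 21 of 40 cases (52.5%, 37.5 to 67.1%, against 20.3%), led by Scn8a with 10 peaks, and Cacna2d2 and Scn10a with 9 each. Glutamate receptor genes were hosts in 14 of 26 (53.8%, 35.5 to 71.2%, against 28.8%), with Grin2b at 9 peaks and Grm4 at 5 after Grik3. Genes of GABA, glycine and acetylcholine receptors were hosts in 18 of 45 (40.0%, 27.0 to 54.5%, against 15.8%), led by Chrna5 with 4 peaks. In these 4 lists the interval lay above the share of genes of the same lengths.

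Axon guidance genes were hosts in 23 of 69 cases (33.3%, 23.4 to 45.1%, against 19.6%). The secreted repellents Slit3 and Slit1 held 21 and 12 peaks, the attractant Ntn1 17 and the receptor Ephb1 13. Neuronal adhesion genes were hosts in 11 of 28 (39.3%, 23.6 to 57.6%, against 27.6%), with Nrxn2 at 7 and Nrxn3 at 6. For cadherins and protocadherins the count was 20 of 92 (21.7%, 14.5 to 31.2%, against 17.9%), and it was 14 when a peak had to lie inside the gene as the RefSeq table placed it. Of the 20, 6 are alpha-protocadherins that share 1 record. Cdh4 held 17 peaks, Cdh23 13 and Cdh22 11. In both of the last lists the interval included the share of genes of the same lengths.

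**Figure D5:**
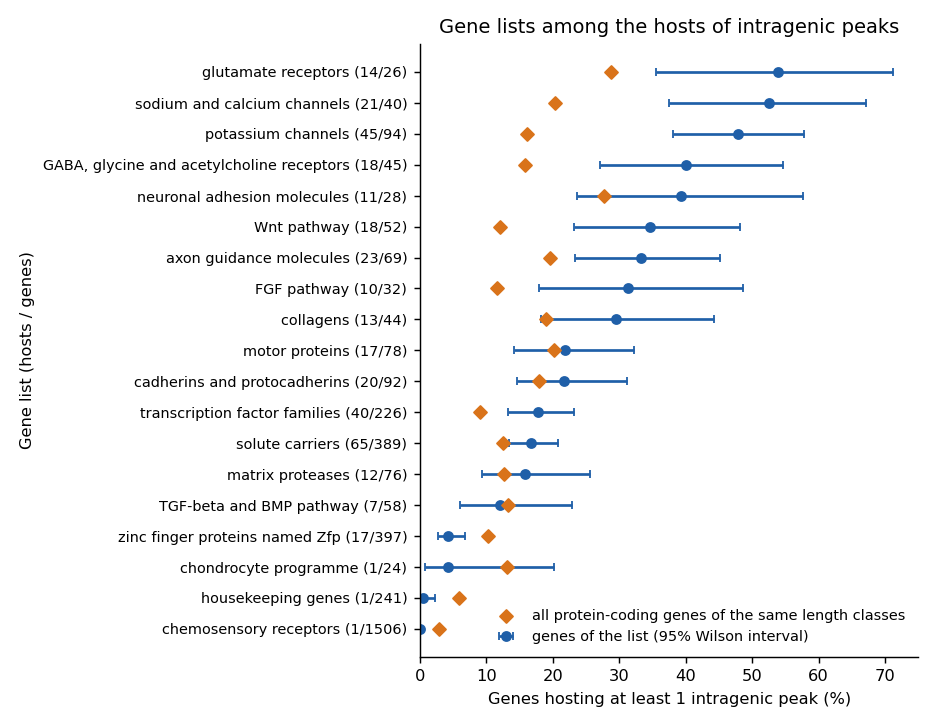
Share of genes hosting at least 1 intragenic peak (%) in 19 gene lists (blue, with 95% Wilson intervals) and among all protein-coding genes of the same length classes (orange diamonds). The intervals of the 2 channel lists and the 2 receptor lists, and of the Wnt, axon guidance, FGF, transcription factor and solute carrier lists, lay above their diamonds, and the housekeeping and chemosensory lists were near 0.

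Transcription factor genes, the classical targets of Polycomb, were hosts in 40 of 226 cases (17.7%, 13.3 to 23.2%, against 9.07%). The paired-box genes Pax5, Pax7 and Pax3 held 14, 9 and 8 peaks and Prdm6 held 12. Pax3 and Gata6 also carried members among the 10 widest, of 9684 and 9841 bp. Genes named Zfp, which encode zinc finger proteins, were hosts in 17 of 397 (4.28%, 2.69 to 6.75%, against 10.3%). Housekeeping genes were hosts in 1 of 241 (0.415%, 0.0733 to 2.31%, against 5.86%), the proteasome gene Psmd8. Chemosensory receptor genes, which are short, were hosts in 1 of 1506 (against 2.85% for the same lengths). The host was Olfr56, whose record was 156 kb against 1.215 kb in the RefSeq table, and in 0 of 1506 by that table, with a Wilson upper bound of 0.254%.

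Among signalling genes, those of the Wnt pathway were hosts in 18 of 52 cases (34.6%, 23.2 to 48.2%, against 12.0%). Wnt ligands formed the larger part. Wnt9a held 5 peaks, Wnt3 4 and Wnt3a 3, and the secreted inhibitor Dkk2 held 3. Of 15 genes taken from the study's text and primers (Wnt10a, Lef1, Lrp4, Lrp5, Fzd3, Fzd6, Tgfbr1, Tgfbr2, Cdkn2a, Axin2, Hif1a, Eed, Ezh1, Ezh2 and Suz12), 2 hosted an intragenic peak, beside 10.4% of all protein-coding genes. Lef1, a nuclear mediator of Wnt signals, had peaks of 1556 bp (fold enrichment 3.09, q 0.0582) at 3.38 kb and of 1129 bp (3.05, q 0.0616) at 7.91 kb from its start, both with a mean q-value above 0.05. Fzd3, a Wnt receptor, had a peak of 1109 bp (3.49, q 0.0110) at 1.75 kb. FGF pathway genes were hosts in 10 of 32 (31.3%, 18 to 48.6%, against 11.6%) and in 8 when placed by the RefSeq table (25%, 13.3 to 42.1%). Fgf6 held 4 peaks in a record of 9.18 kb, and Fgf10 and Fgf14 held 2 each. Genes of the TGF-β and BMP pathway were hosts in 7 of 58 (12.1%, 5.97 to 22.9%, against 13.3%), with 2 peaks each in Bmp8a and Bmp8b.

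In the chondrocyte programme, genes of cartilage matrix and its regulators, 1 of 24 genes (4.17%, 0.739 to 20.2%, against 13.2%) hosted an intragenic peak, and the interval included the share of genes of the same lengths. It was Ihh, the hedgehog ligand of prehypertrophic chondrocytes, with a peak of 3418 bp (fold enrichment 3.58, q 0.00638) centred at 53.3% of a record of 6.33 kb. Collagen genes were hosts in 13 of 44 cases (29.5%, 18.2 to 44.2%, against 18.9%). Those with the most peaks, Col25a1 with 5, and Col4a6, Col6a4 and Col8a1 with 3 each, are not the fibrillar collagens of cartilage. Matrix protease genes were hosts in 12 of 76 (15.8%, 9.27 to 25.6%, against 12.6%), with Adam12 at 5 peaks and Mmp24 at 4. Motor protein genes (17 of 78, 21.8% against 20.1%) had a share whose interval included that of all genes of the same lengths, and solute carrier genes (65 of 389, 16.7%, 13.3 to 20.7%, against 12.5%) lay slightly above it. Myo3b held 23 peaks, all more than 180 kb from its start, and Slc24a2 held 18.

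The records over 2 Mb were those of Galnt2 and Fgfr2, and neither matched the RefSeq table. The record of Galnt2, which encodes a glycosyltransferase, ran over chr8:119910842-124345722 (4.43 Mb), and the RefSeq gene covers chr8:124231394-124345722 (114 kb). It held 91 intragenic peaks, of which 64 had no other host and 0 lay in the RefSeq gene. The record of Fgfr2, an FGF receptor with a role in bone growth, ran over chr7:130162452-133123350 (2.96 Mb), against chr7:130162451-130266808 (104 kb). It held 47 peaks, of which 35 had no other host and 0 lay in the RefSeq gene. Together 99 members (1.52%, 1.25 to 1.85%) had no host record of 2 Mb or less, and 16 of these lay inside any RefSeq gene. RefSeq genes under the peaks of these records included Cdcp3 with 8 peaks, the transcriptional corepressor gene Cbfa2t3 with 7 and Dmbt1 with 5.

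Records more than 2 times as long as the RefSeq gene were few. Of the 6027 members whose host symbol was in the table, 5722 (94.9%, 94.4 to 95.5%) lay inside that gene as the table placed it, and 93.6% of all members lay inside some RefSeq gene. For 73 host genes, with 339 members, the record was more than 2 times as long as in the table, and for 15 genes, with 186 members, more than 10 times.

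The highest fold enrichments among the members were found in very narrow peaks. Of the 10 highest, 4 lay in the Galnt2 record, and 3 of these stood close together at chr8:123555463-123596563, with fold enrichments of 4.77, 4.34 and 4.31 and widths of 415, 340 and 365 bp. The first and the second of them overlap 5S ribosomal RNA genes of RefSeq (n-R5s110 and n-R5s134), a family of near-identical copies between which reads cannot be assigned with certainty. The others were Pde11a (411 bp, 4.53), Galnt16 (386 bp, 4.43), Nrip3 (301 bp, 4.27), Defb43 (303 bp, 4.24), Tmem108 (1664 bp, 4.20) and H2-Q4 (482 bp, 4.14). Only the Tmem108 peak among these 10 was over 500 bp wide.

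The 10 peaks closest to a start, by their near edge, had fold enrichments from 2.81 to 3.66. Among them, Fam150a had a peak of 2360 bp beginning 12 bp inside the gene (fold enrichment 3.18), Ptchd2 one of 1063 bp at 16 bp (2.96), Prrt1 one of 607 bp at 21 bp (2.97) and Adarb2 one of 1474 bp at 42 bp (3.12). Ttll6 had a peak of 6594 bp at 41 bp (3.27) and Fam169a one of 2831 bp at 49 bp (3.66). The distance of these peaks to the start is smaller than 1 fragment of 294 bp, so the rule separates them from peaks over the start by less than the resolution of the data.

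From an intragenic peak, the median gap to the nearest peak of any kind was 2.81 kb (2.68 to 2.93 kb), and 64.9% had another peak within 5 kb. A peak of 10 kb or more lay within 20 kb of 10.6% (9.92 to 11.4%). Another peak within 5 kb was found for 67.8% of the short peaks that covered a start, 69.3% of those beside a gene or over its 3′ end and 91.0% of the peaks of 10 kb or more. For the short peaks with no gene within 5 kb both shares were 61.6% and 11.7% (11 to 12.4%). Per megabase, chromosome 11 held the most members (6.48), and chromosome X held 50 (0.293 per megabase, against 2.62 on the autosomes). The members formed a like share of the peaks on X (36.2%, 28.7 to 44.5%) and on the autosomes (33.5%, 32.9 to 34.2%).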

How the data were processed

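One H3K27me3 ChIP library and 1 input library of primary rib chondrocytes were used. Per the labels, reads were processed with CASAVA 1.8.4, Bowtie2 and MACS2 on build mm10. Per the file headers, broad peaks were called with MACS 2.1.0.20140616, with a fragment length of 294 bp, a q-value cutoff of 0.05 and the larger library scaled down. The authors deposited, per peak, the pileup (a coverage signal), the fold enrichment (a ratio to input after adding 1 to both) and −log10 q-values averaged over the peak. This mean was above the stated cutoff in many peaks. In Ptchd2, a peak at the lowest pileup of the list (9.86) had a mean q-value of 0.0988. The members are therefore not all peaks with a q-value of 0.05 or less, and the reason was not tested. The pileup sets a floor below which no peak was called. The authors also deposited a table that joined each peak to gene records within 5 kb, whose tool is not given in the sources used here. No column of the authors' own group comparisons was present.

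Peaks were counted by name, and the relation of peak and gene, the record ends and the strand were taken from the deposited table. Distances run from the gene start to the peak centre. Where a peak had several hosts, the shortest record gave the position, and all pairs gave the peaks per gene. Of 2433 host symbols, 2418 (99.4%) were found in RefSeq's GRCm38.p6 gene table, which holds no exons, so exon and intron were not told apart. Shares have 95% Wilson intervals and medians exact binomial intervals, which cover counting error only. Lists were compared with all protein-coding genes in 8 length classes. The code was tested on simulated peaks. Python 3.11.15, numpy 2.4.6, pandas 2.3.3 and scipy 1.17.1 were used. The members, gene lists and named genes were chosen with earlier results of these data known. Genes were named if they held the most peaks (10), had the highest density (10), lay at the 10 widest, 10 most enriched or 10 start-nearest peaks or within 5 of the length limit, had a record over 2 Mb, belonged to the study's or the chondrocyte genes, or led a list (4 each). Some genes that this rule names are not reported here. The examples of starts between peaks, the inner starts and the RefSeq genes under the long records were added after values were seen. Alternatives were stricter q-values and fold enrichment, other length limits, leaving out records over 2 Mb, every pair of peak and gene, and the RefSeq table in place of the deposited records.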

Additional observations from a re-analysis of the deposited data

How the results depend on the processing

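Of 69 values recomputed for 10 results, 40 stayed within 1.5 times the count or within the 95% interval of the share or median, and 29 did not. Stricter peak limits moved most. The number of intragenic peaks fell from 6493 to 3849 with the mean q-value limited to 0.05, to 590 with 0.01 and to 532 with a minimum fold enrichment of 3.5, and the host genes to 509 and 459 at the last 2 limits. Under these 3 limits, in that order, the first 10% of the gene length held 20.7, 25.9 and 25.9% of peaks (18.6% in all), the median distance from the start was 17.3, 10.5 and 11 kb (20.7 kb), the median fold enrichment 3.28, 3.59 and 3.60 (3.15), the share of host genes with at least 3 peaks 18.7, 3.73 and 4.36% (25.5%), the share of peaks with no host record of 2 Mb or less 1.90, 2.20 and 2.44% (1.52%), and the share of protein-coding genes that host a peak 7.58, 1.94 and 1.78% (10.4%). The counts of genes and peaks fall because fewer peaks are kept, and a minimum fold enrichment sets its own median, as the q-value limits largely do, so these medians are no check of stability. The share of hosts with at least 3 peaks also depends on how many peaks are kept. For the other values the cause was not tested. The share of hosts whose start lay under another peak was 8.06% at 0.01 and 6.32% with the minimum fold enrichment (17.3%). For this share the peaks over the start had to pass the same limit, so it also depends on how many of them are kept. With the RefSeq table in place of the deposited records the median distance was 18.4 kb and 11.1% of protein-coding genes were hosts. Peaks under 5 kb had a median fold enrichment of 3.14 (3.138 against 3.150). Without the records over 2 Mb, 96.5% of peaks lay in the gene as RefSeq places it (94.9%). No paired analysis was possible because ChIP and input were 1 library each, and for the same reason no replicate could be left out. At 17237574 ChIP tags the lowest pileup called was 9.86 fragments, so weaker regions in gene bodies were not detectable at this depth.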
